A study of Homo sapiens with 6 samples.

Results

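CLDN1 and 6 further genes of tight junctions (CLDN11, CLDN12, TJP1, OCLN, F11R and CGNL1) were followed at the RNA level in a human cell line in which the transcription factor FOXM1 was induced. The genes were chosen by name, for the rise of CLDN1 in this same comparison, and their rows were taken from the authors' deposited comparison table. That table held 6 of the 7 among its 13008 genes, and these 6 were among the 13153 genes tested here. CLDN11 was present only in the authors' table of 57773 genes in FPKM (reads scaled by library depth and by the length of the gene model). The dox group comprised 3 poly(A) RNA-seq libraries (replicates 1 to 3) from hTERT-RPE1 cells with a Tet-inducible, FLAG-tagged FOXM1c transgene, given 1 µg/mL doxycycline every 24 h for 48 h. The no dox group comprised 3 libraries (replicates 1 to 3) with the same cell line label, whose titles also name the Tet-FLAG-FOXM1c construct. They were labelled wild type and untreated, so their titles and labels differ on the transgene. hTERT-RPE1 is an immortalised retinal pigment epithelial line that expresses telomerase, and it was the only cell line named for any library. No library came from doxycycline-treated cells without the transgene, so effects of doxycycline and of FOXM1c cannot be told apart. If the wild type label holds, the groups also differ in carrying the transgene, which cannot be told apart from these either. The labels do not say that the libraries came from separate cultures, so errors and p-values reflect the spread among these libraries alone, which may be technical.

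Tight junctions seal neighbouring epithelial cells together near the apical surface. Claudins are transmembrane proteins whose extracellular loops form the sealing strands or the ion-selective pores, and occludin (OCLN) and junctional adhesion molecule A (F11R) are further membrane components. Scaffold proteins such as ZO-1 (TJP1) and paracingulin (CGNL1) link them to actin. In the retinal pigment epithelium these junctions form the outer blood-retinal barrier. RNA was measured here and not protein or barrier function.

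The libraries held between 15094498 and 49882123 reads. FOXM1 stood at 65289, 66830 and 74976 normalised counts (the authors' depth-equalised values) in the dox libraries and at 5009, 4383 and 4292 in the no dox libraries, a log2 difference of 3.92 (SE 0.10, limma adjusted p = 4.49e-06). Of 12 markers of retinal pigment epithelium, 8 stayed under 0.1 FPKM in every library and TTR was listed at 0 throughout. OTX2 averaged 2.73 FPKM without and 2.64 with doxycycline. The epithelial cadherin gene CDH1 averaged 0.00399 and 0.00505 FPKM and EPCAM was listed at 0, while the mesenchymal intermediate filament gene VIM averaged 337 and 311 FPKM. The junction genes were therefore read in cells with little RNA of CDH1. Another cadherin gene, CDH2, averaged 33.1 FPKM without and 36.1 with doxycycline. The summed level of the 7 mesenchymal markers overlapped between the groups (431 to 530 FPKM in dox, 443 to 543 in no dox), as did that of the 5 epithelial markers (68.0 to 98.7 and 54.6 to 77.6 FPKM), which rests on KRT8 and KRT18. Both keratin genes were higher in dox in all 3 pairs, with log2 differences of 0.29 and 0.32. Of all tested genes, 55.0% shared a direction in all 3 pairs. By limma 0 of these 2 passed (0 at an unadjusted p under 0.05), beside 0.54% of all tested genes. With the replicate block 2 of 2 passed, beside 22.5% of all tested genes. The part of the keratin genes in the junction results was not tested. Keratinocyte and leukocyte markers, 4 genes each, reached summed levels of at most 0.0364 and 0.0575 FPKM. The 4 endothelial markers found reached 0.135 FPKM in sum. In bulk RNA, more cells that express a gene and more RNA per cell cannot be told apart.

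CLDN1 encodes a sealing claudin of epithelial barriers (ENSG00000163347, minus strand of chromosome 3 from 190023490 to 190040264 in hg19). It stood at 504.5, 413.8 and 428.3 normalised counts in dox replicates 1 to 3 and at 246.6, 235.1 and 280.1 in no dox replicates 1 to 3. The lowest dox library lay well above the highest no dox library, and dox replicate 1 was the highest of all. The group means were 449 ± 48.7 and 254 ± 23.4 (SD, n = 3 each), a ratio of 1.76. On the scale of log2(normalised count + 1) the difference, dox minus no dox, was 0.82 (SE 0.12, 95% interval 0.53 to 1.10), and 117 of the 13153 tested genes had a larger one. Within pairs of libraries with the same replicate number it was 1.03, 0.81 and 0.61. The values rested on 714, 738 and 367 reads in dox and 261, 268 and 140 in no dox. The authors' deposited table gave a log2 fold change of 0.83 for CLDN1 and carried its flag for a higher gene.

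F11R encodes junctional adhesion molecule A, an immunoglobulin-like membrane protein (ENSG00000158769, minus strand of chromosome 1 from 160965001 to 160991138 in hg19). Its normalised counts were 273.9, 356.0 and 373.5 in the dox libraries and 145.3, 200.3 and 211.7 in the no dox libraries. Replicate 1 was the lowest library of each group, and the groups did not overlap. The means were 334 ± 53.2 and 186 ± 35.5 (SD, n = 3 each), a ratio of 1.80, and the log2 difference was 0.85 (SE 0.18, 95% interval 0.42 to 1.28). With the replicate number as a block the standard error was 0.08 on the same difference, and the 3 pair differences lay close together at 0.91, 0.83 and 0.82. CLDN1 and F11R thus had similar differences, but the highest library was replicate 3 in both groups for F11R, and replicate 1 in dox and replicate 3 in no dox for CLDN1. The other junctional adhesion molecule genes on the measured list, JAM2 and JAM3, had log2 differences of -0.03 and -0.02.

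CGNL1 encodes paracingulin, a cytoplasmic protein that recruits regulators of small GTPases to junctions (ENSG00000128849, plus strand of chromosome 15 from 57668165 to 57842925 in hg19). It stood at 91.4, 86.6 and 83.9 normalised counts in dox and at 138.3, 127.7 and 132.9 in no dox. All dox libraries lay below all no dox libraries, with a small spread in each group. The means were 87.3 ± 3.84 and 133 ± 5.28 (SD, n = 3 each), a ratio of 0.659, and the log2 difference was -0.60 (SE 0.14, 95% interval -0.92 to -0.28). The pair differences were -0.59, -0.56 and -0.66. The reads behind them were few, 132, 159 and 71 in dox and 146, 145 and 68 in no dox. Its paralog CGN, which encodes cingulin, had a log2 difference of 0.17 (SE 0.31).

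TJP1 encodes ZO-1, the scaffold that binds claudins, occludin and actin (ENSG00000104067, minus strand of chromosome 15 from 29991571 to 30261068 in hg19). Its normalised counts were 4287, 4736 and 4729 in dox and 3882, 4501 and 4605 in no dox, so the groups overlapped, and replicate 1 was again the lowest in each. The log2 difference was 0.085 (SE 0.091) with a 95% interval from -0.13 to 0.30, which holds 0 and leaves out a change of the size of CLDN1. OCLN encodes occludin (ENSG00000197822, plus strand of chromosome 5 from 68788119 to 68853931 in hg19), and stood at 205.0, 217.6 and 164.1 normalised counts in dox and at 162.6, 200 and 149.2 in no dox. These groups overlapped as well, with replicate 2 highest in each. The log2 difference of OCLN was 0.20 (SE 0.17, 95% interval -0.19 to 0.58).

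CLDN12 encodes a claudin that lacks the carboxy-terminal PDZ-binding motif of most claudins (ENSG00000157224, plus strand of chromosome 7 from 90013035 to 90142716 in hg19). Its normalised counts were 1082, 1330 and 1103 in dox and 900.2, 1148 and 1155 in no dox. The groups overlapped and the pair differences had both signs (0.27, 0.21 and -0.07), with a log2 difference of 0.14 (SE 0.13, 95% interval -0.16 to 0.43). The gene model of CLDN12 overlaps those of CDK14 and GTPBP10 on the same strand, so its reads are uncertain. OCLN overlaps the pseudogene GUSBP3 on the opposite strand, and no source used here says if reads were counted by strand. CLDN11, the claudin of myelin and of Sertoli cell junctions, was listed at 0.0454, 0.0452 and 0.0359 FPKM in dox and at 0.0519, 0.0531 and 0.00598 in no dox. In the smallest whole numbers these values correspond to 21, 25 and 10 reads and to 18, 19 and 1 reads. These hold at a gene model of 11076 bases, the shortest that made all 6 values whole within 0.01 read. The length of the gene model was not given, and a multiple of it would multiply the reads. If the lowest value is a single read, its exact Poisson 95% interval was 0.0253 to 5.57, which covers counting error only. No test between the groups was made for CLDN11 on these few reads.

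**Figure D1:**
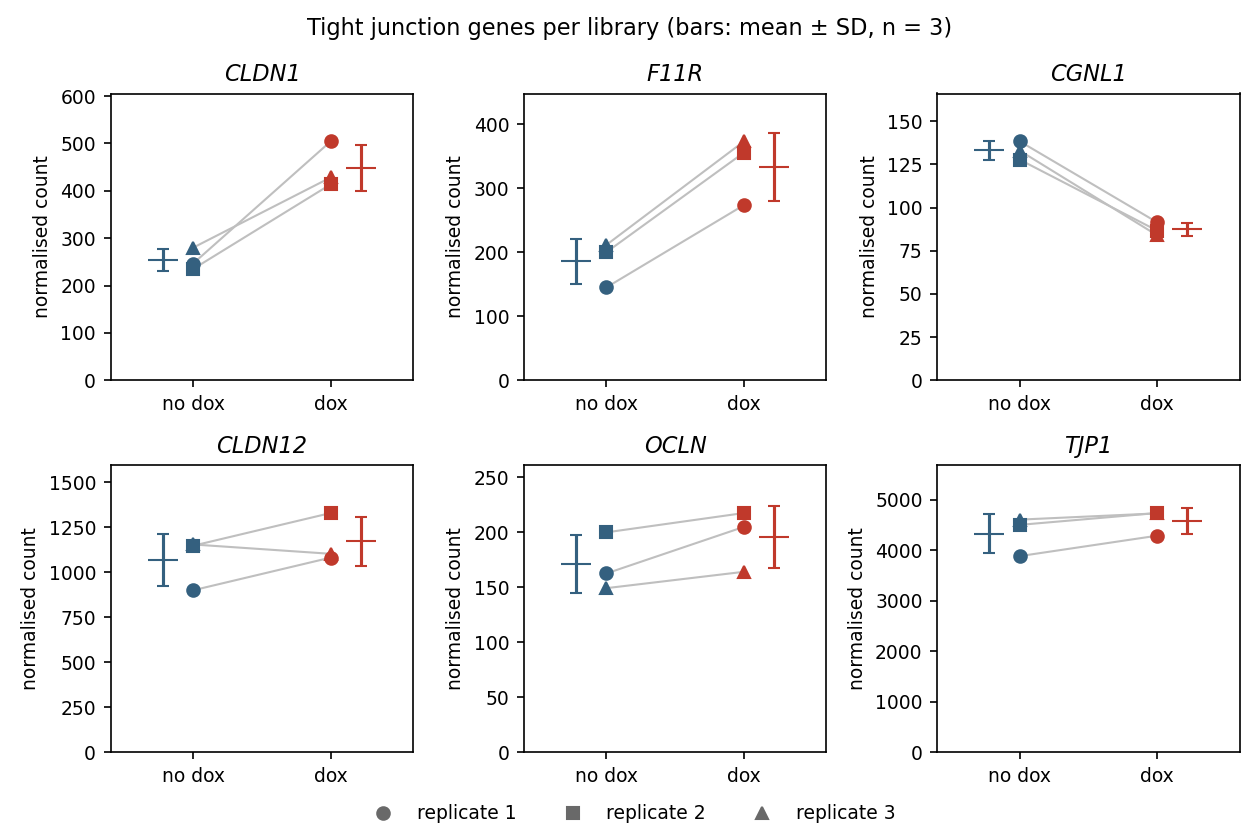
Normalised counts (linear axes from 0) of the 6 genes in the normalised table, one panel per gene, for no dox (blue) and dox (red). Marker shape gives the replicate number, grey lines join libraries with the same number, and the horizontal line with bars is the mean ± SD (n = 3). CLDN1 and F11R lie higher and CGNL1 lower in dox with no overlap, while CLDN12, OCLN and TJP1 overlap.

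Because the genes were chosen with this comparison in view, counts over them are given as a description only. By limma over all genes CLDN1 alone of the 6 measured genes had an adjusted p under 0.05, beside 0.54% of all tested genes. With the replicate number as a block CLDN1, F11R and CGNL1 did, 3 of 6, beside 22.5% of all genes (10.2% higher and 12.4% lower). DESeq2 on reads recovered from the CPM called CLDN1 and F11R, beside 4.01%, and edgeR's quasi-likelihood test called CLDN1, beside 0.515%. Leaving out any single one of the 6 libraries (any of the 3 dox or 3 no dox replicates) left 0 of the 6 genes called by limma, beside 0.0228% to 0.16% of all tested genes (3 to 21 genes), while the log2 difference of CLDN1 stayed between 0.73 and 0.89. The groups did not overlap for 3 of the 6 genes, beside 19.1% of all tested genes, and all 3 pairs shared a direction for 5 of the 6, beside 55.0%. The authors' deposited table flagged CLDN1 and F11R as higher, beside 0.746% of its genes, and gave CGNL1 a log2 fold change of -0.59 without a flag for lower, which 0.815% of its genes carried. The median log2 difference of the 6 genes was 0.17, beside -0.00 for all tested genes.

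Per length, TJP1 was the most abundant of these genes. Over the authors' gene models the no dox means were 4.40 FPKM for TJP1, 2.21 for CLDN1, 1.94 for CLDN12, 0.814 for F11R, 0.523 for CGNL1 and 0.419 for OCLN. CLDN1 (2.12 to 2.37) and CLDN12 (1.62 to 2.16) overlapped in range and no other neighbours in this order did. With doxycycline the order was TJP1 at 4.74 FPKM, CLDN1 at 3.96, CLDN12 at 2.17, F11R at 1.49, OCLN at 0.487 and CGNL1 at 0.351. CLDN1 (3.73 to 4.37) then overlapped TJP1 (4.36 to 5.08), and CGNL1 and OCLN had exchanged places. The order depends on the length used. The authors' gene model lengths exceed the genomic span of some genes, so some bases count more than once in them. PARD6A, for example, has a length of 4960 bases and runs from 67694849 to 67696681 on chromosome 16. Levels of different genes in FPKM, and shares made from them, carry this limit. Per kilobase of the longest coding transcript, CLDN12 stood at 10.2 CPM per kilobase without and 11.4 with doxycycline, above CLDN1 at 2.48 and 4.45, and below TJP1 at 18.6 and 20.0. On that scale CGNL1 was the lowest in both groups, at 0.631 without and 0.423 with doxycycline, and OCLN stood at 0.901 and 1.05. The scale divides reads of the whole gene model by 1 transcript. The 2 lengths were 18764 and 3565 bases for CLDN12 and 33607 and 7950 for TJP1, but 3913 and 3481 for CLDN1. It may therefore overstate CLDN12 and TJP1 against CLDN1.

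CLDN1 and CLDN12 made up most of the claudin RNA by FPKM. The split between them depends on gene length. Per kilobase of transcript, a scale that may overstate CLDN12, CLDN12 stood above CLDN1 in every library. Of 24 claudin genes in the FPKM table, 12 were above 0 in every library, 4 were at 0 in every library, and 5 (CLDN1, CLDN2, CLDN4, CLDN12 and CLDN15) were in the normalised table. CLDN1 accounted for 58.2%, 46.9% and 53.2% of the summed claudin FPKM in dox and for 44.2%, 36.9% and 41.7% in no dox. The share of CLDN12 was 26.3%, 31.6% and 28.5% in dox and 33.6%, 37.5% and 36.1% in no dox, against sums of 7.52, 8.07 and 7.01 FPKM and of 4.82, 5.75 and 5.69 FPKM. The share of CLDN1 was higher and that of CLDN12 lower in every dox library than in any no dox library. CLDN1 was chosen for its rise and is a large part of the sum, so these shares are not separate from that rise. CLDN12 itself averaged 1.94 FPKM without and 2.17 with doxycycline. CLDN2, a claudin that forms cation pores, was far scarcer, at 22.5, 34.3 and 29.5 normalised counts in dox and 5.5, 8.49 and 12.9 in no dox. Its groups did not overlap, and its log2 difference was 1.63 (SE 0.39, limma adjusted p = 0.118). Blocking on the replicate number gave a limma adjusted p of 0.0044. CLDN2 met the filter of 10 normalised counts in 3 libraries only through the dox group, where it is high. Its p-values and the gap between its groups are therefore a description only. The CLDN2 values rested on 31, 55 and 26 reads against 6, 10 and 6. CLDN4 and CLDN15 had log2 differences of 0.57 (SE 0.48) and 0.29 (SE 0.25), with overlapping groups.

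**Figure D2:**
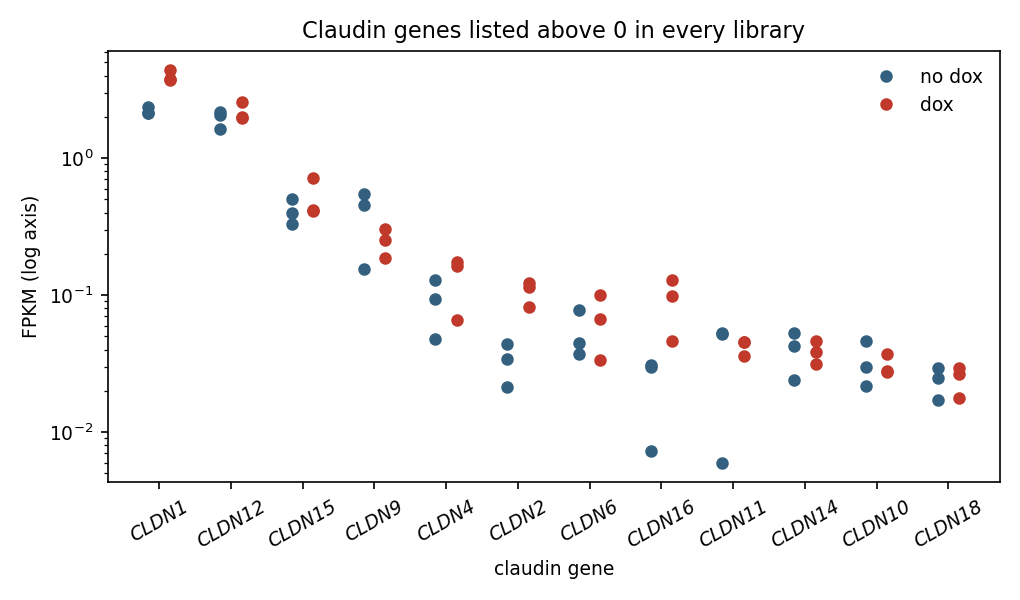
FPKM on a log axis of the 12 claudin genes listed above 0 in every library, ordered by mean, with 1 point per library (no dox blue, dox red). CLDN1 and CLDN12 lie at or above 1.62 FPKM in every library, and the other 10 stay below 1 FPKM.

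Among 64 further tight junction genes listed, 42 were tested and 0 passed limma's adjusted threshold of 0.05. An unadjusted limma p under 0.05 was found for 6 of the 42, beside 1710 of the 13153 tested genes. Their median log2 difference was -0.01, beside -0.00 over all tested genes, with 20 positive and 22 negative differences. The groups did not overlap for 11 of the 42 (5 higher and 6 lower), beside 19.1% of all tested genes. With the replicate block 10 passed, which is 23.8% of the list beside 22.5% of all genes. The 6 higher ones were CLDN2, the polarity gene PARD6B, the kinase gene WNK4, the scaffold gene MAGI1, the virus receptor and adhesion gene CXADR, and CSDA, which encodes the ZO-1-associated factor ZONAB. The lower ones included the GTPase gene RAB3B, the scaffold gene MAGI3 and AMOT, which encodes angiomotin. DESeq2 called 1 of the list, CLDN2, and edgeR's quasi-likelihood test without a block called 0. CLDN2 was among the genes tested by limma only through its dox libraries.

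Of the genes on this list with a mean of at least 100 normalised counts, PARD6B, PARD6A and PARD6G had the largest log2 differences. They encode the PAR6 adaptors of the apical polarity complex. PARD6B stood at 117.7, 110.7 and 186.1 normalised counts in dox and 77.3, 91.2 and 108.6 in no dox, a log2 difference of 0.55 (SE 0.24, limma adjusted p = 0.381, with the block 0.0165). Its groups were apart only narrowly, at 108.6 and 110.7. The log2 differences of PARD6A and PARD6G were -0.34 (SE 0.14, limma adjusted p = 0.349) and 0.32 (SE 0.17, limma adjusted p = 0.485), so the PAR6 genes did not share a direction. The most abundant listed genes by FPKM were RAB13 (log2 difference -0.13), RAB3B (-0.14), MTDH (-0.10), VAPA (-0.01) and AMOTL2 (-0.04). RAB13 encodes a GTPase that acts in junction assembly. MARVELD2, which encodes tricellulin, had a log2 difference of 0.07.

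**Figure D3:**
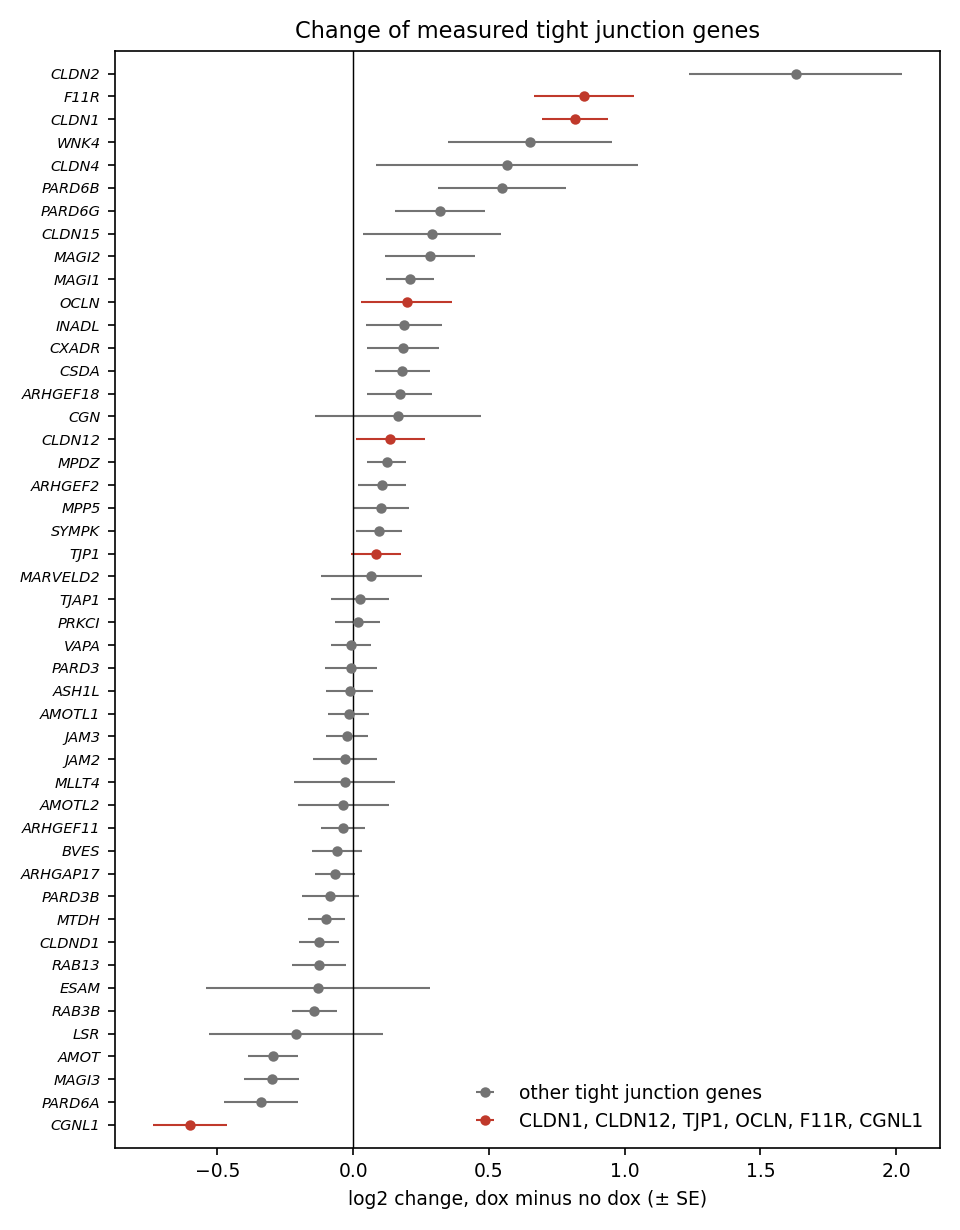
Log2 difference, dox minus no dox, with its standard error as a line, for measured tight junction genes, of which the 6 chosen ones are red. CLDN2, F11R and CLDN1 have the highest differences and CGNL1 the lowest, at -0.60, and the other genes shown lie between -0.34 (PARD6A) and 0.65 (WNK4).

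Adherens junctions are the cadherin-based contacts below tight junctions. Of 23 listed genes 16 were tested and 0 passed by limma, with a median log2 difference of -0.02. An unadjusted limma p under 0.05 was found for 3 of the 16, beside 1710 of the 13153 tested genes. DESeq2 called 1, CDH6, and edgeR without a block called 0. CDH6, which encodes a type II cadherin, had a log2 difference of -0.44 (SE 0.08, limma adjusted p = 0.0628, with the block 5.61e-04). With the block 7 of the 16 passed (43.8%, beside 22.5% of all genes), of which CDH13, CTNNB1 (beta-catenin) and JUP (plakoglobin) were higher and CDH6, PVRL1 (nectin-1), VCL (vinculin) and SSX2IP lower. Among gap junction genes, 5 of 13 listed were tested and 0 passed by limma, with 1 at an unadjusted p under 0.05 and 0 called by edgeR without a block. That gene, the connexin gene GJC1, stood at 2157, 2378 and 2138 normalised counts in dox and 3133, 3285 and 2938 in no dox, with a log2 difference of -0.49 (SE 0.08). Its limma adjusted p was 0.0512, it passed with a minimum of 50 normalised counts and with the block (adjusted p = 1.26e-04), and DESeq2 called it. With the block it was 1 of 5, which is 20.0% beside 22.5% of all genes.

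Several transcription factors are known to repress or activate junction genes. Of 23 listed 10 were tested and 0 passed by limma, by edgeR without a block or by DESeq2. An unadjusted limma p under 0.05 was found for 3 of the 10, beside 1710 of the 13153 tested genes. The related repressors of epithelial genes ZEB1 and ZEB2 had differences of opposite sign. ZEB2 stood at 1761, 1768 and 1907 normalised counts in dox and 1405, 1428 and 1663 in no dox, a log2 difference of 0.28 (SE 0.09, limma adjusted p = 0.235, with the block 0.00376). ZEB1 stood at 1625, 1492 and 1606 in dox and 1747, 1889 and 2018 in no dox, a log2 difference of -0.26 (SE 0.08, limma adjusted p = 0.231, with the block 0.0105). The groups did not overlap for either gene. With the block 3 of the 10 passed (30%, beside 22.5% of all genes), ZEB2 and KLF4 higher and ZEB1 lower. KLF4 had a log2 difference of 0.53 (limma adjusted p = 0.373, with the block 0.0396), and SNAI1 and SNAI2 had -0.13 and 0.27.

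Promoter windows of 250 bases before the annotated start were read from RefSeq on GRCh38.p14, which held entries for CLDN1, CLDN11, CLDN12, TJP1, OCLN and CGNL1, with 1 to 4 windows for each. They are shown for CLDN1 and CGNL1, which differed in opposite directions, and for OCLN and TJP1, which have a window with the E-box letters recognised by the ZEB and SNAI repressors. Each runs 5′ to 3′ on the gene's strand, and the capitals mark the E-box (CACCTG, read here on the reverse strand).
CLDN1, chr3:190322447-190322696, minus strand: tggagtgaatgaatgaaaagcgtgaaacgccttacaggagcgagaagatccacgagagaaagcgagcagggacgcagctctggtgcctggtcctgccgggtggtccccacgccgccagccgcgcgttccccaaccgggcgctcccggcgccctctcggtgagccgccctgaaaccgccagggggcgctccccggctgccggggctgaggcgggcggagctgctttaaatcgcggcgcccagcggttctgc
CGNL1, chr15:57376255-57376504, plus strand: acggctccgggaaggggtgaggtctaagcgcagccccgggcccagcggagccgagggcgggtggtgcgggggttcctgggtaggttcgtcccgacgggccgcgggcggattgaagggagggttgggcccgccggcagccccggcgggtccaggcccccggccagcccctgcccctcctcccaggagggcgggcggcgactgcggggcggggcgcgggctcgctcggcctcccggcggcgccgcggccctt
OCLN, chr5:69492297-69492546, plus strand: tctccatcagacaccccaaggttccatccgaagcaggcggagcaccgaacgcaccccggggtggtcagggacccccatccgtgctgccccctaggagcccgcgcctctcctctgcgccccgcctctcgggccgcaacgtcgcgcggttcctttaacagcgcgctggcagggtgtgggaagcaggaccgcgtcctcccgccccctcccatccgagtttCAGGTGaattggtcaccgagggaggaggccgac
TJP1, chr15:29969050-29969299, minus strand: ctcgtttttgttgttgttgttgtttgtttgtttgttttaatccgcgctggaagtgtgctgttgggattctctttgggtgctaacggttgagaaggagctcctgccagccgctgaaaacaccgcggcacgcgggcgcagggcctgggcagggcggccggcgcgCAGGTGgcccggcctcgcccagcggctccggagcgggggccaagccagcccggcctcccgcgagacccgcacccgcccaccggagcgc
The windows of CLDN1 and CGNL1 were rich in G and C, at 68.8% and 80.4% beside a median of 58.0% over all RefSeq promoters. The windows shown of OCLN and TJP1 were rich as well, at 68.8% and 66.8%, and that of CLDN12 held 54.4%. A high share was thus not particular to the genes that differed between the groups. The E-box lay 33 bases before the start in the OCLN window shown, and 133 in the other OCLN window. It lay 88 bases before the start in the TJP1 window shown, and the other 3 TJP1 windows did not hold it. Of 35116 single promoter windows of the same length, 17.5% held it on either strand, and a gene with several windows has more chances to hold it. The forkhead core TAAACA, searched on both strands and held by 11% of windows, was in no window of these genes with an entry. Only these exact letters were searched, and related forms of the forkhead core were not. The cell cycle homology element TTTGAA, searched likewise and held by 13.3%, was only in an alternative CLDN11 window. A match is a description of letters, and the absence of letters from a window says nothing about binding of a factor.

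The genes closest to CLDN1 in pattern over the 6 libraries were HES1, REEP6, TMTC1, ABCC3 and CHRM3, with HES1 a Notch-responsive repressor and ABCC3 an organic anion exporter. Likeness was the root mean square distance of log2(normalised count + 1) after subtracting each gene's mean, and it was 0.066, 0.086, 0.0915, 0.0965 and 0.102 in that order. Pearson's r to CLDN1 was 0.989, 0.988, 0.978, 0.987 and 0.991 over 6 libraries that share the difference between the groups. F11R lay farther away, at a distance of 0.273 (r = 0.823), then OCLN at 0.392, CLDN12 at 0.399 and TJP1 at 0.400, and CGNL1 at 0.716 (r = -0.924). Dox replicate 1, where CLDN1 was highest, was the library where F11R was lowest within dox.

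**Figure D4:**
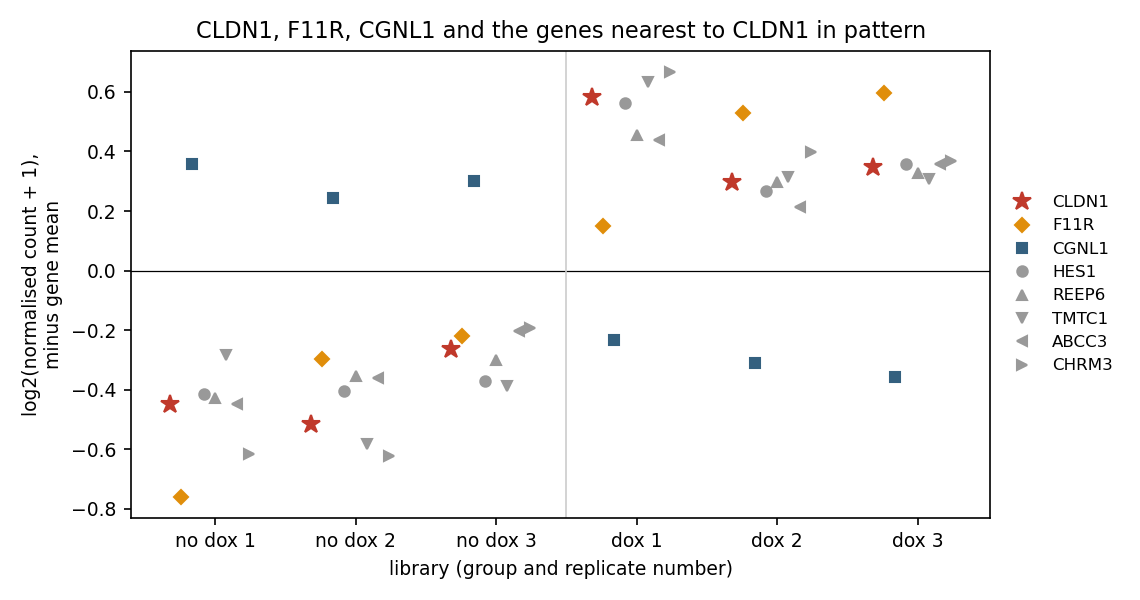
Log2(normalised count + 1) minus the gene's mean over the 6 libraries, for CLDN1 (red stars), F11R (orange diamonds), CGNL1 (blue squares) and the 5 genes closest to CLDN1 (grey). CLDN1, F11R and the grey genes lie above 0 in all dox libraries and CGNL1 below 0, and F11R departs most from CLDN1 in replicate 1.

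The genes next to CLDN1 on chromosome 3 were measured too. In the RefSeq order P3H2 (named LEPREL1 in the files), CLDN16, CLDN1, TMEM207 and IL1RAP, the 2 outer genes were in the normalised table. LEPREL1 had a log2 difference of 0.04 (SE 0.09), and IL1RAP 0.14 (SE 0.09), with start sites 200038 and 191576 bases from that of CLDN1. CLDN16, a claudin of renal ion transport singled out after its values were seen, was listed at 0.129, 0.0983 and 0.0464 FPKM in dox and 0.0298, 0.00724 and 0.031 in no dox. In the smallest whole numbers that is 23, 21 and 5 reads against 4, 1 and 2, and no test was made on these few reads.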

How the data were processed

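Per the submitters' processing notes the authors used bcl2fastq, Trimmomatic, TopHat and edgeR with build hg19; versions and the handling of strand and shared reads are not given in the sources used here. The authors deposited a table of 13161 genes in normalised counts, a signal made comparable in depth by a formula that is not given. They also deposited FPKM values and a comparison table with CPM and a log2 fold change. The deposited FPKM equal the CPM divided by gene model length in kilobases. For some genes that length exceeds the genomic span. Deposited CPM values (100%) were whole multiples of 1 read within 0.01, so reads were recovered from them. The score, p-value and adjusted p-value columns of the authors' deposited table were not used.

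The members and gene lists were chosen with earlier results of these data known. The test was limma-trend (limma 3.58.1, R 4.3.3) (two-sided, no block) applied to log2(normalised count + 1) of the 13153 genes that reached 10 normalised counts in 3 or more libraries (8 did not), with Benjamini-Hochberg adjustment over all genes. This scale understates changes of low genes. Same-numbered libraries deviated together (r = 0.745, 0.726 and 0.768), so the numbers were taken to pair the libraries. Replicate 3 was the shallowest library of each group (25148936 reads in dox, 15094498 in no dox). The part of depth in these correlations was not tested. This pairing comes from the data and the titles' numbers. Alternatives were the replicate block, edgeR 4.0.16 and DESeq2 1.42.0 on recovered reads, other pseudocounts, filters and scalings, FPKM and leaving out each library. edgeR with a block and transcript length were added after seeing the data. Symbols came from the authors' table for 13008 genes and a reference for 143. Genes named in each list had the 3 largest changes at a mean of at least 100 normalised counts, the highest FPKM (5 tight junction genes), or passed a test with the block. The 5 genes most like CLDN1 and its measured neighbours starting within 500000 bases were also named. Other paralogs and regulators were named after their values were seen. An item of the tight junction list is counted but not reported here by name.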

Additional observations from a re-analysis of the deposited data

How the results depend on the processing

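The differences of CLDN1, F11R, CGNL1, OCLN, CLDN12 and TJP1 kept their signs under all alternatives run. Over these the log2 difference was 0.73 to 0.89 for CLDN1, 0.68 to 0.99 for F11R, -0.64 to -0.47 for CGNL1, 0.11 to 0.32 for OCLN, 0.02 to 0.20 for CLDN12 and 0.01 to 0.13 for TJP1. Counts of calls depended on the test far more. Over all genes limma called 71 (42 higher and 29 lower), 31 on FPKM (26 higher and 5 lower), 2965 with the replicate block, 3058 with edgeR and the replicate block, and 522 with DESeq2. Leaving out 1 library each gave 3 to 21. The tight junction list outside the chosen genes went from 0 calls to 10 with the replicate block in limma or edgeR and to 1 with DESeq2. For adherens junction genes these were 7, 7 and 1. For the transcription factors the replicate block gave 3 of 10 in limma and 4 of 10 in edgeR, beside 22.5% and 23.5% of all genes. For gap junction genes a minimum of 50 normalised counts gave 1, as did DESeq2 and the replicate block in limma and in edgeR (20.0% of the 5 tested). Pseudocounts, filters and scalings changed no call of CLDN1. Depth limits CLDN2, CLDN11 and CLDN16 most, each with fewer than 60 reads in any library (in the smallest whole numbers for CLDN11 and CLDN16).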
